A study of Mus musculus with 12 samples.

Results

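H3K27ac was compared between cardiomyocytes (CMs) with and without RIP140 at 10 genes of triglyceride synthesis and lipid droplets: Gpam, Lpin1, Dgat1, Dgat2, Plin2, Plin4, Plin5, Pnpla2, Abhd5 and Lipe. They were chosen by name from the 21938 protein-coding genes of GENCODE M21 for what their products do. The choice was made with earlier results of these data known. Every H3K27ac-enriched region that overlapped a gene body extended by 5 kb on each side was taken as a region of that gene. This gave 36 of the 53754 regions listed for control CMs and 36 of the 45521 regions listed for KO CMs, each region counted 1 time where neighboring genes share it. H3K27ac, an acetylated form of histone H3 found at active enhancers and promoters, was measured by CUT&RUN, in which an antibody guides a nuclease to chromatin and the released DNA is sequenced. KO CMs came from csNrip1-/- mice, which carry floxed Nrip1 (Nrip1 f/f, Cre+) and lose RIP140, the corepressor that Nrip1 encodes, through a Cre driven by Nkx2.5. Control CMs came from littermates with the same floxed alleles and no Cre (Nrip1 f/f, Cre-), so the KO group differs by Cre as well as by the deletion. Both groups were 10 to 12 weeks old, and each had 3 H3K27ac and 3 IgG samples, 12 in all. The Nkx2.5 driver is active from early heart development, and the cells were enriched from whole digested hearts rather than sorted.

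Triglyceride is built by adding fatty acids to a glycerol backbone step by step, and it is kept in droplets coated by perilipins. Lipases on the droplet surface release the fatty acids again. Heart muscle burns fatty acids as its main fuel and holds small droplets next to its mitochondria, so storage and release turn over side by side. RIP140 is known from fat and liver as a corepressor of nuclear receptors that control lipid genes.

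A single list per genotype was used, made by the authors from the regions found in at least 2 of 3 replicates. The lists carry no signal, depth or value for a replicate, so no error between replicates and no test could be given for any value below. A region of 1 list that overlapped no region of the other by at least 1 bp is called KO-only or control-only. Such a region did not reach the authors' threshold in at least 2 of 3 replicates of the other genotype, which is not the same as an absence of H3K27ac. The quantity compared for each gene is its covered length, the number of bp of its window (gene body with 5 kb flanks) that lie inside regions. Coordinates are in GRCm38, the build of the lists. At Nrip1 itself, the last exon (chr16:76287400-76295015), which holds the coding sequence, had 2904 bp covered in control CMs and 0 bp in KO CMs. The 8 cardiomyocyte markers (such as Myh6 and Tnnt2) were all covered within 1000 bp of a start site in both lists, over 27301 bp in control and 29355 bp in KO CMs. Of 5 endothelial markers, 5 in control and 4 in KO CMs were also covered, over 10646 and 10558 bp. Of 6 fibroblast markers 1 (Pdgfra) was covered in control and 0 in KO CMs, of 4 smooth muscle and pericyte markers 2 in both, and of 5 macrophage markers 0 in both. Endothelial markers were thus covered as well as those of CMs, and a difference in the mix of cells and a difference within each cell cannot be told apart in such bulk lists.

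All 10 genes had regions in both lists, and at 8 of them the covered length was larger in KO CMs. The share of coding genes that did so was 58.1% of the 12989 covered in both lists. Among the 8, Plin2 was nearly even (log2 ratio 0.03), and Plin4 and Plin5 share regions. Those over 1.5-fold wider in KO CMs were Gpam and Dgat1, which encode enzymes of the first and the last step of triglyceride synthesis, and Plin4, a droplet coat protein. These are 3 of 10 genes, against 16.3% of coding genes covered in both lists. Of the 10 genes 0 were over 1.5-fold narrower, as 8.60% of coding genes were. The median log2 ratio of covered length (KO over control) was 0.24 over the 10 genes and 0.08 over coding genes, whose quartiles were -0.20 and 0.39. With 10 genes and no replicate values, these shares describe the lists, and whether the 10 genes differ from other genes was not tested. In the union of their windows, 357.598 kb in all, regions covered 118.873 kb in control and 148.05 kb in KO CMs. They had 102.508 kb in common, 86.2% of the control length and 69.2% of the KO length. Over single coding genes covered in both lists, the medians of these shares were 83.9% and 78.1%. KO CMs alone covered 45.542 kb and control CMs alone 16.365 kb.

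**Figure D1:**
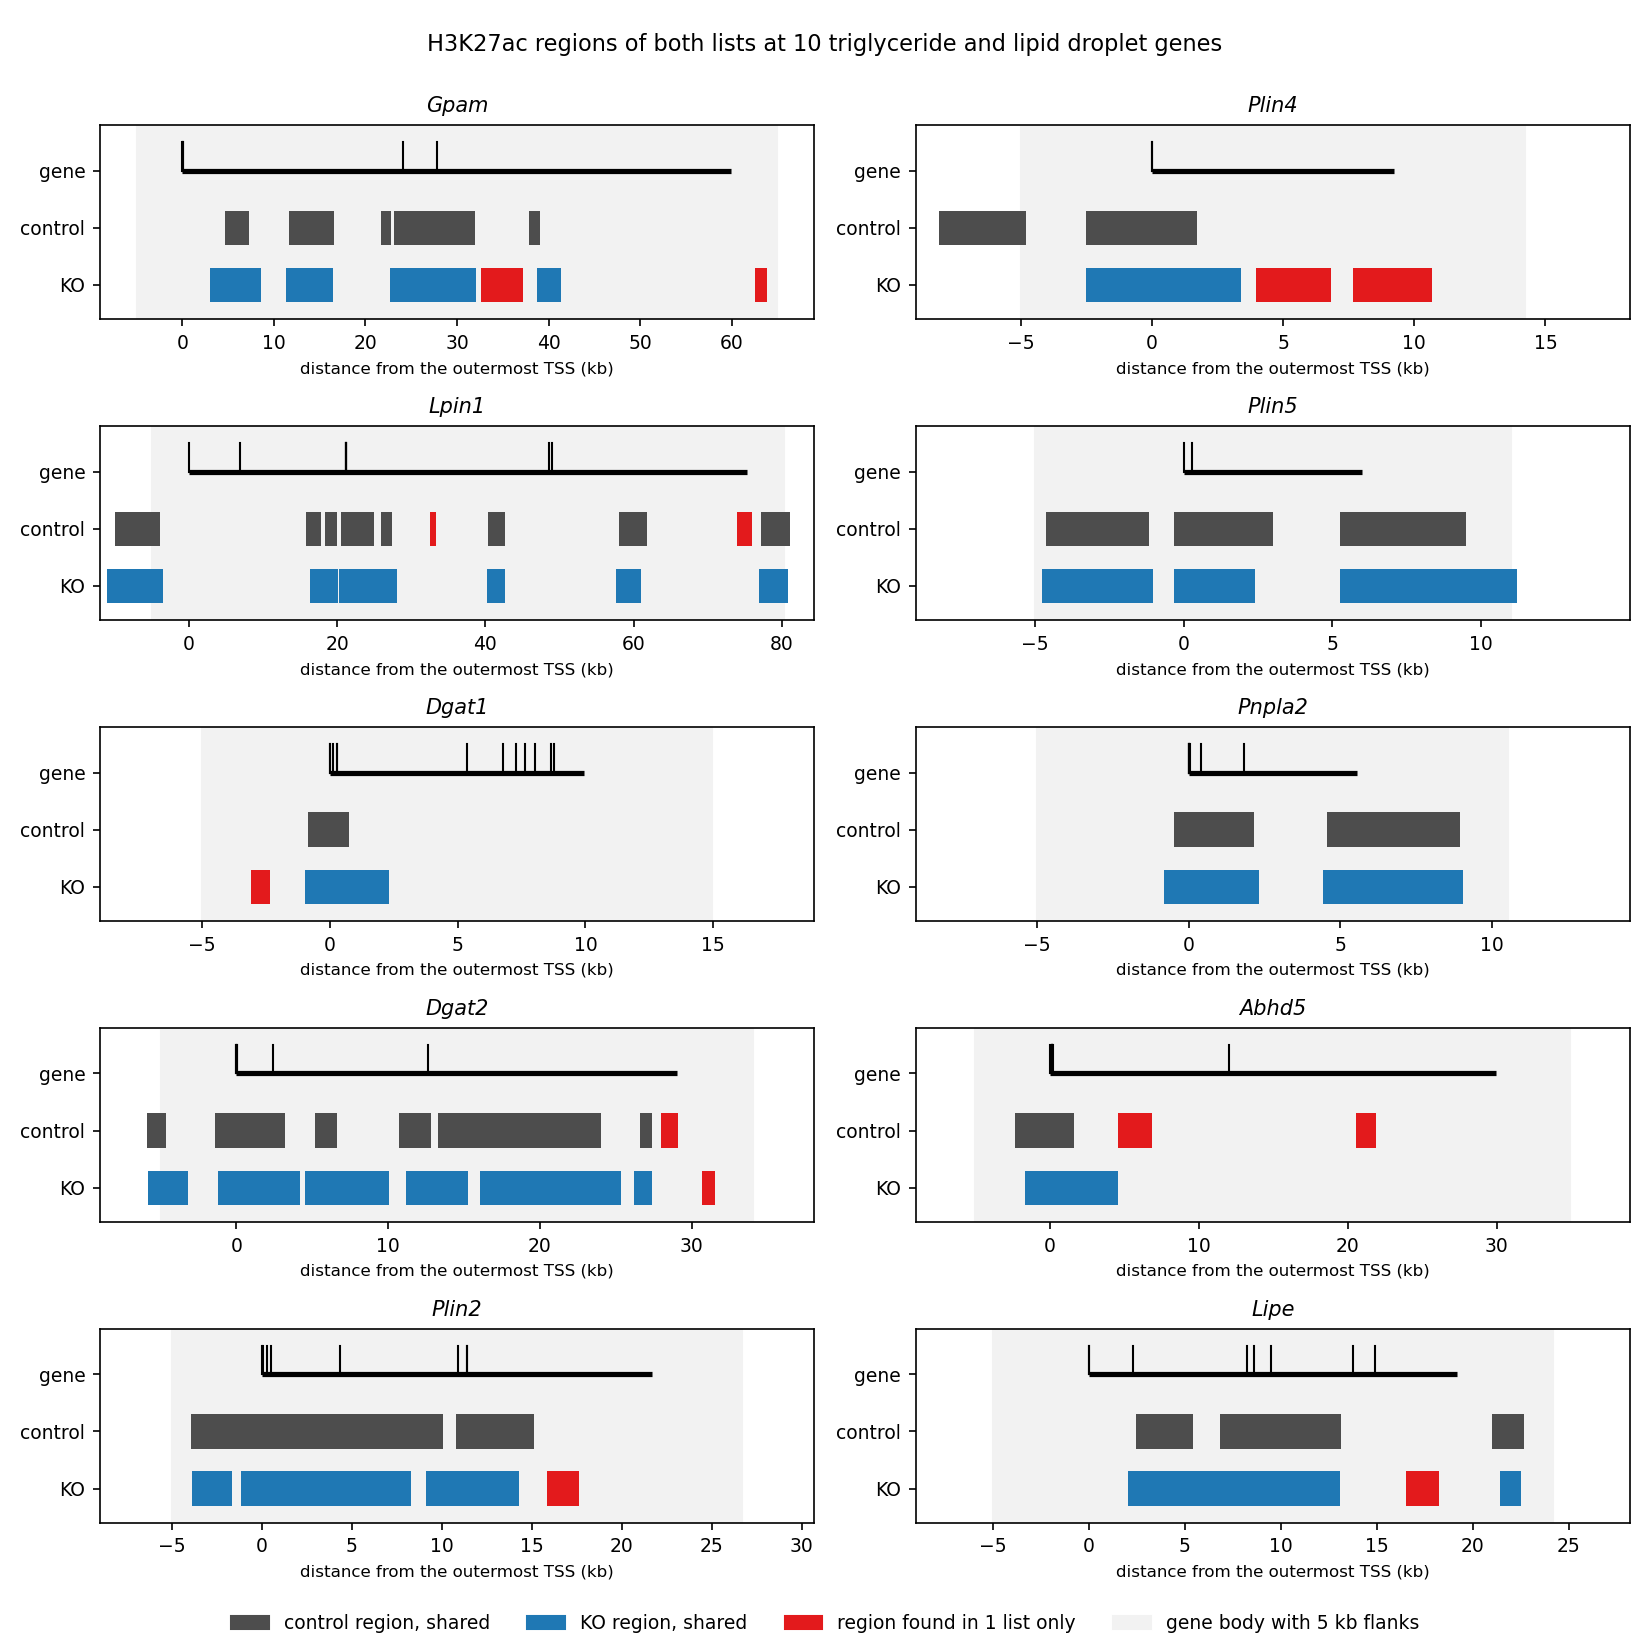
Regions of the control list (dark gray) and the KO list (blue) at each gene, drawn by distance in kb from the outermost start site in the direction of transcription, with regions found in 1 list only in red, start sites as vertical ticks and the window shaded. Red KO regions lie inside or just beside Gpam, Dgat1, Dgat2, Plin2, Plin4 and Lipe, and red control regions at Lpin1, Dgat2 and Abhd5.

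Gpam encodes the mitochondrial glycerol phosphate acyltransferase, which adds the first fatty acid to the backbone and commits it to glycerolipid synthesis. The gene (ENSMUSG00000024978) lies at chr19:55067268-55127238 on the minus strand. Its window had 18688 bp covered by 5 regions in control CMs and 28748 bp covered by 6 regions in KO CMs, a log2 ratio of 0.62 that was above that of 85.0% of coding genes. KO CMs thus covered 41.1% of the window and control CMs 26.7%. KO CMs alone covered 11997 bp, the largest such length among the 10 genes, and control CMs alone 1937 bp. The wider KO-only region, an intronic stretch of 4567 bp at chr19:55090021-55094587, was merged from 3 subpeaks, regions called in single replicates, and lay 635 bp from the nearest control region. The other, of 1393 bp and 2 subpeaks, lay in the downstream flank at chr19:55063350-55064742, 23402 bp from any control region. A KO region of 9443 bp at chr19:55095140-55104582 joined 2 control regions. Over the gene body without its flanks the log2 ratio of Gpam was 0.55, short of 1.5-fold.

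At Gpam the inner start sites lay in regions and the outermost one did not. The start of transcript Gpam-201, 27787 bp into the gene, and that of Gpam-204, 24147 bp in, lay in regions in both lists. The 3 starts at the outer end lay in regions in neither list, and the nearest region began 4716 bp from the outermost start in control and 3072 bp in KO CMs. RefSeq lists a promoter of 300 bases at the inner start and another at the outer end, and the pair is printed here since it differs in coverage and in sequence. The inner promoter was covered over all 300 bp in both lists and holds 30 CpG dinucleotides, and the outer promoter was covered over 0 bp in both and holds 9. Over all 32851 RefSeq mouse promoters the median was 7. Capitals mark CpG, and sequences run 5′ to 3′ on the gene's strand, from RefSeq on GRCm38.
Gpam inner promoter, chr19:55099428-55099727, minus strand: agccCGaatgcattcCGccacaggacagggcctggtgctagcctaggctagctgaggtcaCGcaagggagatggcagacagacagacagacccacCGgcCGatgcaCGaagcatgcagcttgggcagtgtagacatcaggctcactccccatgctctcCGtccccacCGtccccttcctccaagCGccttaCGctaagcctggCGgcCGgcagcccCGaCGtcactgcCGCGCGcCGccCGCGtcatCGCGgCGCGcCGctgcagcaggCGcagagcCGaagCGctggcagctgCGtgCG
Gpam outer promoter, chr19:55127189-55127488, minus strand: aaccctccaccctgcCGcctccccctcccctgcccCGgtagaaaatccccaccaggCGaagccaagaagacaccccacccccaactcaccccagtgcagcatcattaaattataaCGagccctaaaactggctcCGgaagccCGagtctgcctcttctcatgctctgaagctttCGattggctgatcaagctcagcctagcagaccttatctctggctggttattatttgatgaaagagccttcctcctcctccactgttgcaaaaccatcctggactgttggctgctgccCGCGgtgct

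Promoters of at least 10 CpG were touched by a region in 66.3% of cases in control and 70.7% in KO CMs, and those of fewer in 16.2% and 16.5%. The inner and the outer promoter of Gpam were each in the state that most promoters of their class had.

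Lpin1 encodes lipin 1, the phosphatidate phosphatase that makes diacylglycerol and also acts as a nuclear coactivator. It lies at chr12:16535669-16610966 on the minus strand (ENSMUSG00000020593). Its covered length was nearly the same in the lists, 22549 bp in 10 control regions and 22297 bp in 6 KO regions, a log2 ratio of -0.02. The KO list held 4 fewer regions. The KO regions at chr12:16582871-16590737 (7867 bp) and chr12:16590870-16594632 (3763 bp) each overlapped 2 control regions. Control-only regions numbered 2, both of 2 subpeaks. The first, of 2008 bp at chr12:16535065-16537072, covered the 3′ end of the gene and lay 1000 bp from a KO region. The second, of 761 bp, was intronic at chr12:16577694-16578454 and lay 4416 bp from a KO region.

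The outermost start of Lpin1 was also outside any region, by 3834 bp in control and 3490 bp in KO CMs. The 4 starts that lie between 21193 and 21246 bp into the gene, were covered in both lists. The RefSeq promoter at the outer end was covered over 0 bp in both lists and holds 2 CpG, which places it with the promoters of few CpG. It is shown for comparison with the inner Gpam promoter.
Lpin1 outer promoter, chr12:16610917-16611216, minus strand: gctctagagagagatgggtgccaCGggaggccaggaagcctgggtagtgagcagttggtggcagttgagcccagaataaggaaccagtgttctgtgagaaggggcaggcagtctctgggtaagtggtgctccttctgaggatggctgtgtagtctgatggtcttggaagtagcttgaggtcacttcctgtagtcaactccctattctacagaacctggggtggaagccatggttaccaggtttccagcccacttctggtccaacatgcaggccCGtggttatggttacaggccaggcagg

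Dgat1 and Dgat2 encode the unrelated diacylglycerol acyltransferases that add the last fatty acid. Dgat1 (ENSMUSG00000022555, chr15:76502015-76511953, minus strand) was covered over 1584 bp in control and 4088 bp in KO CMs, a log2 ratio of 1.37, above that of 96.9% of coding genes. All 1584 bp of the control length were also covered in KO CMs. Its only control region reached from position -853 to 730 relative to the outermost start, and the matching KO region, of 3315 bp, from -981 to 2333. A KO-only region of 773 bp, with 2 subpeaks, lay upstream at chr15:76514279-76515051, 1472 bp from the control region. The start of a neighbor, Hsf1, which encodes a heat shock transcription factor, lies in the same window, so the regions upstream of Dgat1 cannot be assigned to it alone. With 1584 bp as its base, the Dgat1 ratio rests on the least control length of the 10 genes. Both KO regions have 2 subpeaks and the control region has 3, so with regions of 3 or more subpeaks only, the gene was covered in control CMs and not in KO CMs.

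Dgat2 (ENSMUSG00000030747, chr7:99153658-99182719, minus strand) had 7 regions in each list. They covered 21136 bp in control and 28172 bp in KO CMs, a log2 ratio of 0.41, above that of 76.0% of coding genes, and 72.1% of the window in KO CMs against 54.1%. It was the only gene of the 10 with regions of both kinds. The control-only region, of 1124 bp at chr7:99153637-99154760, held the 3′ end of the gene and lay 577 bp from a KO region, and the KO-only region, of 889 bp at chr7:99151155-99152043, lay just past that end. All its annotated starts were covered in both lists. A control region of 10684 bp in its introns (chr7:99158719-99169402) was overlapped by 2 KO regions, of 9290 and 4059 bp.

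**Figure D2:**
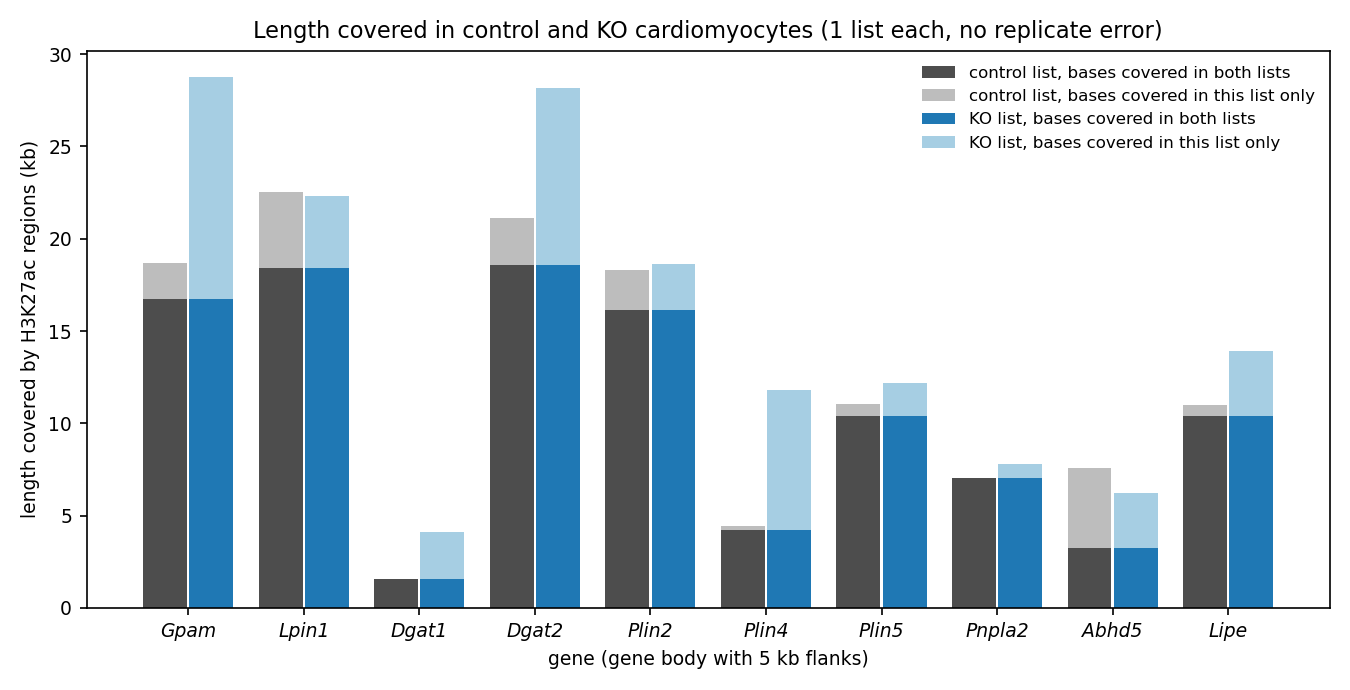
Covered length in kb of each gene's window in the control list (gray) and the KO list (blue), with 1 list per genotype and no replicate error, and the dark part of each bar showing bases covered in both lists. The light part of the KO bar is largest at Gpam, Dgat2 and Plin4 (11997, 9620 and 7574 bp), and at Abhd5 and Lpin1 the light part of the control bar exceeds that of the KO bar.

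Of the perilipins, which coat droplets and control the access of lipases, Plin2 is found on droplets of most cells, Plin4 mainly in muscle and fat, and Plin5 in oxidative tissues, where it links droplets to mitochondria. Plin2 (ENSMUSG00000028494, chr4:86648386-86670060, minus strand) was covered over 18301 bp in control and 18634 bp in KO CMs, a log2 ratio of 0.03. Its main control region, of 13989 bp at chr4:86660009-86673997, was wider than 98.7% of control regions and the widest at any of the 10 genes. It was overlapped by 3 KO regions, the widest of 9462 bp, so the same stretch was listed as 1 domain in control and in pieces in KO CMs. A KO-only region of 1769 bp, with 2 subpeaks, lay in an intron at chr4:86652426-86654194, 753 bp from a control region. All 8 annotated starts were covered in both lists.

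Plin4 (ENSMUSG00000002831, chr17:56100591-56109803, minus strand) had the highest ratio of the 10 genes, with 4453 bp covered in control and 11808 bp in KO CMs, a log2 ratio of 1.41, above that of 97.2% of coding genes. KO regions covered 61.5% of its window and control regions 23.2%. In control CMs the regions were confined to the start of the gene and its upstream flank. In KO CMs the region at the start was wider, 5928 bp against 4239 bp, and 2 KO-only regions followed it through the gene body. The first, of 2865 bp and 2 subpeaks at chr17:56102989-56105853, lay over exons, 2241 bp from the control region. The second, of 3015 bp and 3 subpeaks at chr17:56099120-56102134, held the 3′ end of Plin4 and also the start site of Hdgfl2, a neighbor, and lay 5960 bp from a control region. When regions were given whole to the gene with the nearest start site, Plin4 had 0 KO-only regions and a log2 ratio of 0.48. The ratio was 0.64 with regions taken whole and not clipped to the window, and 2.19 over the gene body without flanks.

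Plin5 (ENSMUSG00000011305, chr17:56111601-56117596, minus strand) lies next to Plin4, and their windows share regions. It had 3 regions in each list, over 11033 bp in control and 12166 bp in KO CMs, a log2 ratio of 0.14, and no region of 1 list alone. Over the gene body without flanks its log2 ratio was -0.26, and with regions given to the nearest start site -0.30. The region over its own start measured 3341 bp in control and 2721 bp in KO CMs. The region at Plin4 reaches into its downstream flank, and the third region lies at the start of another neighbor, Lrg1. At this pair of genes the KO-only regions thus lay in the window of Plin4, and the one at its 3′ end also held the start of Hdgfl2. The region over the start of Plin5 was not wider in KO CMs. The region at Lrg1 measured 3453 bp in control and 3717 bp in KO CMs.

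Pnpla2 encodes adipose triglyceride lipase, which removes the first fatty acid from triglyceride. At this gene (ENSMUSG00000025509, chr7:141455198-141460743, plus strand) the lists were close, with 2 regions each over 7016 bp in control and 7773 bp in KO CMs, a log2 ratio of 0.15. All of the control length was also covered in KO CMs, and the region over its start measured 2633 bp in control and 3146 bp in KO CMs. The other region covers the start of a neighbor, Cracr2b, and the start of Rplp2 also lies in the window.

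Abhd5 encodes CGI-58, the coactivator of that lipase, and had the lowest ratio of covered length of the 10 genes. At chr9:122351608-122381524 on the plus strand (ENSMUSG00000032540), 3 regions covered 7563 bp in control and 1 region covered 6197 bp in KO CMs, a log2 ratio of -0.29, with 19.4% of coding genes lower. It had 2 control-only regions. The first, of 2277 bp at chr9:122356168-122358444, began only 13 bp from the KO region over the start, which measured 6197 bp against 3947 bp in control CMs, so its call rests on those few bases. The second, of 1339 bp at chr9:122372156-122373494, was 16001 bp from any KO region and had 2 subpeaks. Of the 5 control-only regions at the 10 genes it lay farthest from the KO list.

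Lipe encodes hormone-sensitive lipase, which removes the second fatty acid and also splits cholesteryl and retinyl esters. At chr7:25379527-25398710 on the minus strand (ENSMUSG00000003123), 3 regions in each list covered 11003 bp in control and 13895 bp in KO CMs, a log2 ratio of 0.34, above that of 71.9% of coding genes. A KO region of 11036 bp at chr7:25385610-25396645 joined 2 control regions of 6327 and 3011 bp and was wider than 96.5% of KO regions. A KO-only region of 1730 bp, with 3 subpeaks, lay in an intron at chr7:25380474-25382203, 2756 bp from a control region. The outermost start was covered in neither list. The start of Lipe-201, 2331 bp into the gene, was covered in KO CMs only. The nearest region began 2448 bp into the gene in control and 2065 bp in KO CMs, so this call rests on a short stretch. The starts of Lipe-202, Lipe-205 and Lipe-208, between 8233 and 9486 bp in, were covered in both lists. Both RefSeq promoters of Lipe were covered over 300 of 300 bp in both lists, although the inner one holds 2 CpG and the upstream one 19. They are shown since the inner promoter, unlike the outer ends of Gpam and Lpin1, was covered with few CpG.
Lipe inner promoter, chr7:25390063-25390362, minus strand: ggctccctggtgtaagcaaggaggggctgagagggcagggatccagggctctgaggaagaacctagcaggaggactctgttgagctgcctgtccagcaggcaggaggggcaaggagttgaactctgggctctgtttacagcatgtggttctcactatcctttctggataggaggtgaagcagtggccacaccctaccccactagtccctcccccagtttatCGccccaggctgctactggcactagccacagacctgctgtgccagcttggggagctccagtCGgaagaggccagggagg
Lipe upstream promoter, chr7:25395938-25396237, minus strand: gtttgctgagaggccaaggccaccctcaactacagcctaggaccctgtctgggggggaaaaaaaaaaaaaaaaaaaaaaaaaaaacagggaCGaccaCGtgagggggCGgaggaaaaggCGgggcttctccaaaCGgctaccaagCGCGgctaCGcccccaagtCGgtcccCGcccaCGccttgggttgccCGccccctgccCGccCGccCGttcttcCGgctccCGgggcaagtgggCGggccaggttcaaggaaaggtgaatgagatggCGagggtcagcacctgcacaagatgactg

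The upstream promoter holds the E-box CACGTG, as does the promoter of Plin2. These were 2 of the 11 RefSeq promoters found for 8 of the 10 genes, and 7.15% of all promoters hold it. No promoter of the 11 held the letters of the other motifs searched on both strands: TCAAGGTCA, bound by the estrogen-related receptors (ERR, 0.423% of all promoters), TCACNCCAC of SREBP (1.24%), AGGTCANAGGTCA of PPAR (0.0396%), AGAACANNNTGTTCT of the glucocorticoid receptor (0.00913%) and the MEF2 consensus (0.557%). In the central 1000 bp of regions, the ERR letters were in 2 of 36 control regions (5.56%, against 3.21% of all control regions) and 1 of 36 KO regions (2.78%, against 3.31%). The E-box was in 8 of 36 control (22.2%, against 13.2%) and 5 of 36 KO regions (13.9%, against 13.8%). PPAR and glucocorticoid receptor letters were in 0 regions of these genes in either list.

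Over the whole length of regions, the E-box had 167 matches per Mb in control and 148 in KO regions of these genes, against 139.7 and 143.3 per Mb over all regions of each list. MEF2 had 39.8 and 25.7 per Mb, against 37.9 and 36.1, and SREBP 31.9 and 25.7, against 34.1 and 34.6. PPAR and glucocorticoid receptor letters had 0 matches. The control regions held 7 matches to the ERR letters and the KO regions 8, or 55.8 and 51.5 per Mb, against 32.7 and 33.6. The matches lay at 3 genes, 5 at Lpin1, 1 at Plin2 and 2 at Plin4, and 7 of them were covered in both lists. Of those at Lpin1, 3 lie in the parts of regions that reach beyond the 5 kb flanks. The match at chr12:16614742-16614790 was covered in KO CMs only. They are printed with 20 bases on each side and the letters searched in capitals, from the reference genome. The flanks differ between sites, and 3 of the 8 matches lie in annotated repeats.
Lpin1, chr12:16530483-16530531, plus strand: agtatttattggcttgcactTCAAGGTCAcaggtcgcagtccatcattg
Lpin1, chr12:16587923-16587971, minus strand: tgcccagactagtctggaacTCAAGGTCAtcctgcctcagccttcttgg
Lpin1, chr12:16618107-16618155, minus strand: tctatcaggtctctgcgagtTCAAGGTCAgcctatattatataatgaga
Lpin1, chr12:16619842-16619890, minus strand: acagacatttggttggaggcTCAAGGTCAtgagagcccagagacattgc
Lpin1, chr12:16614742-16614790, plus strand: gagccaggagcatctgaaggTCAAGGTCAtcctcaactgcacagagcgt
Plin2, chr4:86662974-86663022, plus strand: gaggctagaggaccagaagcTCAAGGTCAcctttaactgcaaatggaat
Plin4, chr17:56108120-56108168, plus strand: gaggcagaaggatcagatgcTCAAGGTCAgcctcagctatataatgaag
Plin4, chr17:56108205-56108253, plus strand: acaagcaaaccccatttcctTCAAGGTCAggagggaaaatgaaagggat

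None of the 8 KO-only regions held a match to any of the 6 motifs over its whole length. The 5 control-only regions held 3 E-boxes and 1 SREBP match. No share over all KO-only or all control-only regions was computed, so these counts do not set these regions apart from others. The KO-only regions were few and short in total, and a lack of these letters says nothing of other sequences.

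KO-only regions were found at 6 of the 10 genes, against 35.2% of coding genes with any region, and control-only regions at 3, against 39.2%. Gpam, Dgat1, Plin2, Plin4 and Lipe had KO-only and no control-only regions, 5 of 10 against 17.4%. Lpin1 and Abhd5 had control-only and no KO-only regions, 2 of 10 against 21.4%. Pnpla2 and Plin5 had neither. Several of these calls changed under the alternatives given below. A gene with more regions has more chances to hold one of either kind, and the coding genes were not matched for number of regions. Counted by region, 8 of 36 KO regions were KO-only, 22.2% (95% Wilson interval 11.7 to 38.1), against 20.7% of KO regions at all coding genes. Of control regions, 5 of 36 were control-only, 13.9% (6.08 to 28.7), against 26.95%. The intervals cover the counting of regions only, and both hold the share at all coding genes. They treat regions as independent, though several lie at the same gene, so they give no test of a difference. The KO share was close to that background and the control share was below it, and neither difference was tested.

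A listed region of 2 subpeaks was found in exactly 2 of 3 replicates. A larger number does not show that all replicates had it, since 1 replicate can give several subpeaks, and the regions of these genes had up to 8. All 5 control-only regions and 5 of the 8 KO-only regions had 2 subpeaks. The exceptions, with 3 each, were the intronic KO-only regions of Gpam and Lipe and the one over the 3′ end of Plin4. Over all regions found in 1 list only, 2 was the number in 87.8% of those KO-only and 94.3% of those control-only. KO-only regions measured 773 to 4567 bp (median 1749.5 bp) and control-only regions 761 to 2277 bp (median 1339 bp). Both medians were below that of all regions of these genes, 3740 bp in KO and 2606 bp in control CMs. Over the whole lists the median region was also wider in KO CMs, 2291 bp against 1846 bp in control CMs. The 8 KO-only regions together measured 17001 bp, so most of the 45.542 kb covered in KO CMs alone lay in regions that overlapped a control region. Of KO regions at these genes 6 of 36 joined at least 2 control regions, 16.7% against 10.4% of KO regions at all coding genes, and of control regions 2 of 36 joined KO regions, 5.56% against 5.57%.

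**Figure D3:**
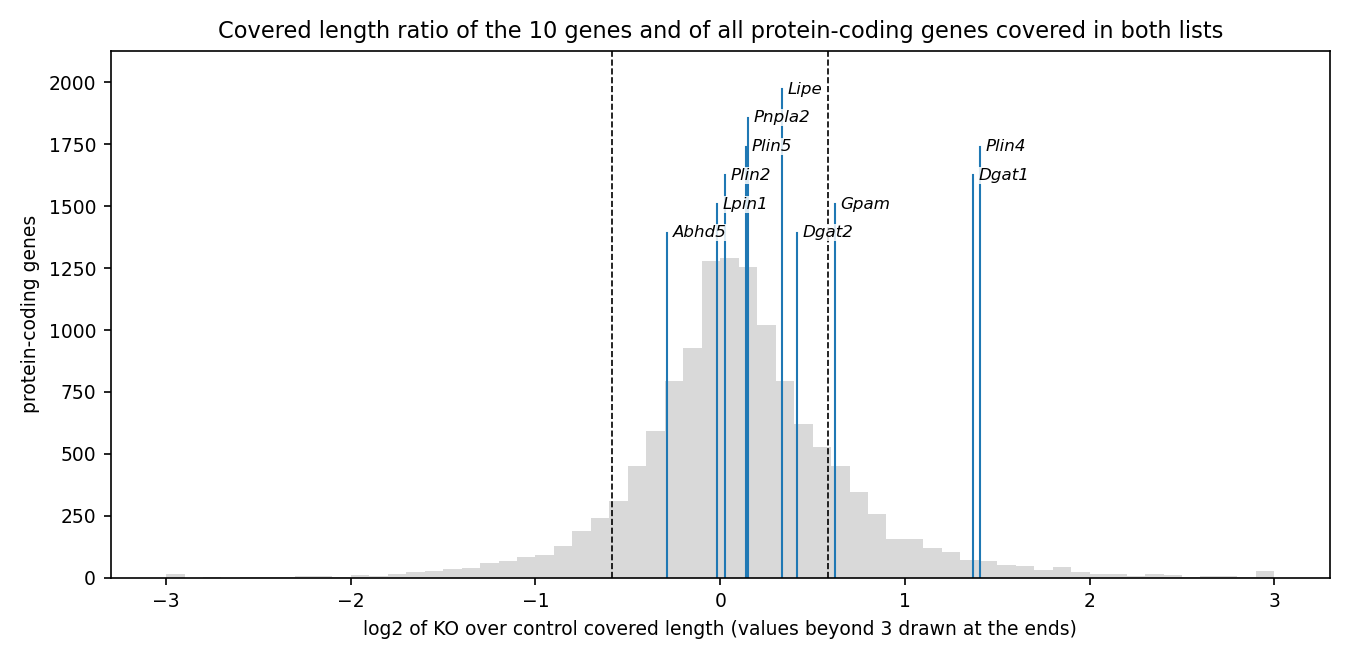
Histogram of the log2 ratio of covered length (KO over control) for the 12989 coding genes covered in both lists (gray), with each of the 10 genes as a blue line whose height carries no value and dashed lines at 1.5-fold. Gpam (0.62), Dgat1 (1.37) and Plin4 (1.41) lie beyond the upper dashed line, and the other genes lie within the bulk of the distribution.

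The wider pathway was read from a list of 38 further genes. They act in triglyceride synthesis, lipolysis, droplet formation and fatty acid supply, and 37 were covered in both lists and 1 in neither (Dgat2l6). Of the 37, the covered length was over 1.5-fold larger in KO CMs at 5, against 16.3% of coding genes, and smaller at 3, against 8.60%, and the median log2 ratio was -0.10. KO-only regions were found at 10 of the 37, against 35.2% of coding genes with a region, and control-only regions at 17, against 39.2%. Among the 14 other synthesis genes, which include the acyltransferases Gpat3, Gpat4 and Agpat1 to Agpat5 and the remaining lipins, 0 were wider and 1 was narrower by more than 1.5-fold, with a median of -0.19. Control-only regions were found at 9 of the 13 synthesis genes with a region, against 39.2% of coding genes. In groups this small such counts describe the genes named and were not tested. Gpat3 and Gpat4, which carry out the same step as Gpam in the endoplasmic reticulum, had log2 ratios of -0.19 and -0.27. The 11 other coat and formation genes had a median of -0.01, with 2 wider and 1 narrower, the 5 other lipolysis genes -0.13, with 1 of each, and the 8 supply genes -0.0049, with 2 wider and 0 narrower.

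Cideb, which acts in droplet fusion and lipoprotein loading, had the highest ratio of the 38, with 938 bp in control and 4003 bp in KO CMs (log2 ratio 2.09), and its window also holds the starts of Ltb4r2 and Nop9. Fabp3, the fatty acid binding protein of heart muscle, followed with 7442 and 13826 bp (0.89), in a window with the starts of Gm10570 and Zcchc17. Aup1, a droplet protein, had 1308 and 2424 bp (0.89), in a window with the starts of Dqx1, Htra2 and Loxl3. The lowest ratios were those of Agpat4, a lysophosphatidate acyltransferase, with 7489 and 2477 bp (-1.60), of Cidec, a droplet fusion protein of fat cells, with 291 and 97 bp (-1.58), and of Hilpda, an inhibitor of adipose triglyceride lipase, with 7043 and 4051 bp (-0.80), whose window holds the start of Fam71f2. The values of Cidec are so small that its ratio describes the edge of 1 region.

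**Figure D4:**
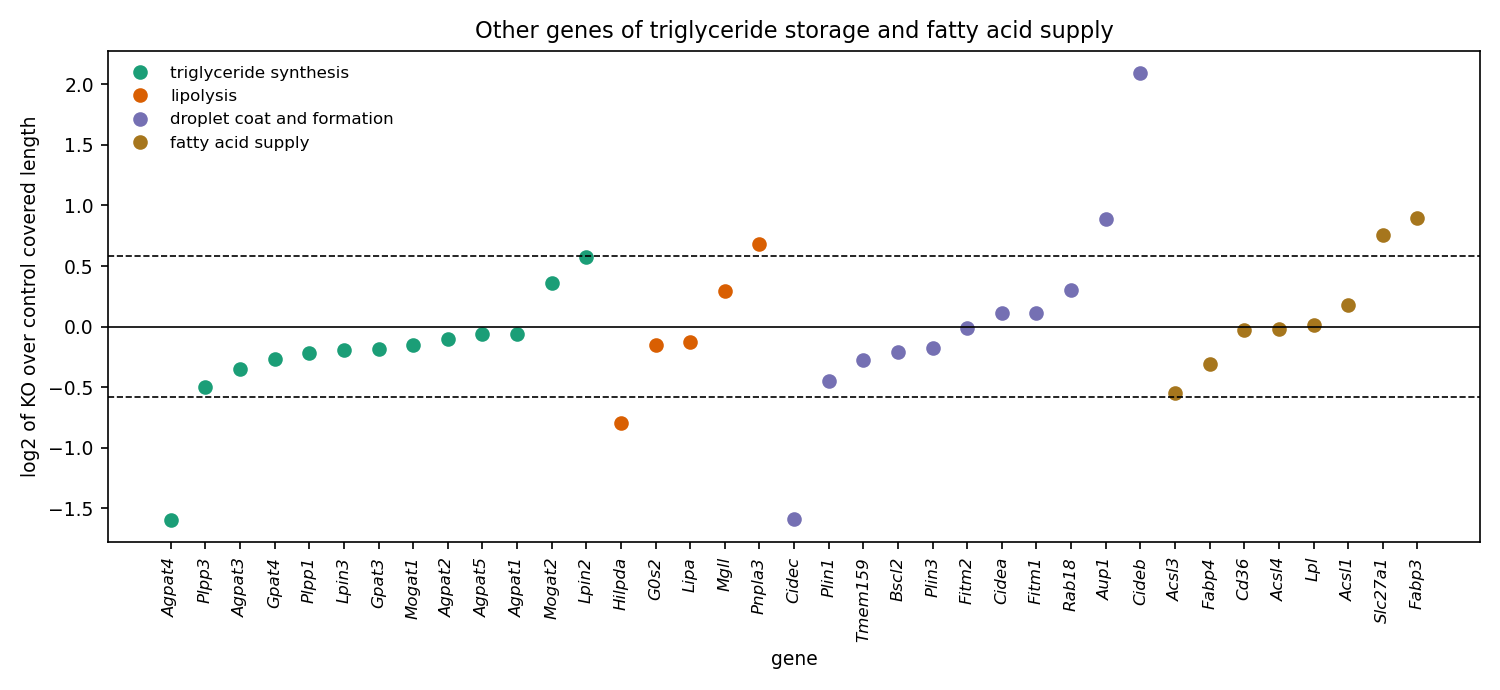
Log2 ratio of covered length (KO over control) for the 37 other pathway genes covered in both lists, colored by group and ordered within each group, with dashed lines at 1.5-fold. Cideb stands highest at 2.09 and Agpat4 and Cidec lowest at -1.60 and -1.58, and most synthesis genes lie just below 0.

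Because several of these genes are also high in fat, adipocyte markers were read beside them. Of 7 such markers, 0 were covered within 1000 bp of a start site in control and 1 in KO CMs (Plin1, over 128 bp), and Adipoq, Cidec, Retn, Cfd, Lep and Adrb3 had 0 bp in both lists. Plin1 and Cidec are also among the 38 pathway genes. Over its whole window Plin1 was covered over 2971 bp in control and 2174 bp in KO CMs, a log2 ratio of -0.45. Among the 7 markers, whole-window lengths are given only for Plin1 and Cidec, and the presence of fat cells was not tested.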

How the data were processed

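CUT&RUN for H3K27ac was run on CMs of csNrip1-/- and littermate control mice, with 3 H3K27ac and 3 IgG samples per genotype, grouped by their labels. Per the submitters' notes and the study's methods, the authors mapped the reads with Bowtie2 2.4.2 (genome GRCm38), dropped duplicates (SAMtools), called regions per replicate against IgG with HOMER 4.11.1 and kept those found in at least 2 of 3 replicates. The authors deposited 1 list per genotype with the start and end of each region in bp. Its score is 1 throughout and was not used. Each region's name ends in its number of subpeaks. Depth per sample is unknown from these lists, and no value has a replicate error.

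The 21 control and 14 KO regions outside chromosomes 1 to 19, X and Y were dropped. Windows were gene bodies of GENCODE M21 extended by 5 kb. Sharing required 1 bp, and the fold called was 1.5. Motifs were searched on both strands of the reference genome. All 10 genes are named, and of the 38 further genes those with the 3 highest and the 3 lowest ratios. Gene examples beyond this rule (Gpat3, Gpat4 and Plin1) were chosen after their values were seen. The genes and lists were chosen with earlier results of these data known. Alternatives changed the overlap, window, assignment to genes and width of regions. The counting was tested on simulated data, where 2000 of 2000 genes came out right. Python 3.11.15, numpy 2.4.6, scipy 1.17.1, pysam 0.24.0 and matplotlib 3.10.9 were used.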

Additional observations from a re-analysis of the deposited data

How the results depend on the processing

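No paired analysis was possible because each genotype has 1 list pooled over its replicates, and for the same reason no replicate could be left out. The KO-only regions at the 10 genes numbered 13 when at least 50% of a region had to be covered, 16 under a reciprocal 50% overlap and 5 without flanks. The control-only regions numbered 16 under the reciprocal overlap, 2 when a gap of up to 1000 bp counted as shared and 8 when regions went to the nearest start site. No share over all coding genes was computed for these region counts, nor for those of the subpeak filter below. They thus do not tell a change at these genes from one at all genes. The median log2 ratio was 0.36 with 20 kb flanks, against 0.10 over coding genes. Genes over 1.5-fold wider in KO CMs numbered 3 of 10 with 20 kb flanks, against 16.3% of coding genes. They numbered 2 without flanks, against 17.5%, and 2 with regions given to the nearest start site, against 15.6%. A filter chosen after seeing the data, which kept regions of 3 or more subpeaks, gave 10 KO-only and 2 control-only regions and left 8 genes with a ratio, since Dgat1 was then covered in control CMs only and Abhd5 in KO CMs only. Of the 8, 5 were over 1.5-fold wider and 1 narrower, with a median of 0.76. Over coding genes the same filter gave 24.3% wider, 10.8% narrower and a median of 0.13. Of 68 alternatives for the log2 ratio of a single gene, 60 stayed on the same side of 1.5-fold and 8 crossed it. Beside those of Gpam and Plin4 given above, these were Plin4 at 0.58 and Plin5 at 0.75 with 20 kb flanks, and Lpin1 at 1.27, Dgat2 at 0.77, Pnpla2 at 1.56 and Plin2 at -0.95, a change of sign from 0.03, with 3 or more subpeaks. Of the ratios that did not cross it, Plin5 changed sign as given above, Plin2 was -0.08 with regions given to the nearest start site, and Lpin1 lay between 0.03 and 0.04 under 4 alternatives. For the counts of a single gene, 28 of 90 alternatives moved the KO-only and 19 of 90 the control-only number. Moved means a change to or from 0 or by over 1.5-fold. Dgat1 had 0 KO-only regions without flanks or with regions of at least 1000 bp. Plin2 had 0 when a gap of up to 1000 bp counted as shared, and Lipe kept 1 throughout. Under the reciprocal overlap Gpam had 3 control-only regions and Lipe 1. The cause was not tested. The unknown depth limits every call of a region as found in 1 list only.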

Other observations

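Base composition set the regions of these genes beside those of the whole lists. In the central 1000 bp, the median GC content was 50.3% in the 36 control regions and 50.5% in the 36 KO regions, against 45.2% and 46% over all regions of each list. The 8 KO-only regions had a median GC content of 48.8%, against 45.4% over all KO-only regions, and a median of 6.55% of repeat sequence, against 15.2%. The 5 control-only regions had 47.6% GC, against 43.3%, and 13.1% repeat sequence, against 16.9%. With so few regions these medians are descriptions of single loci. The whole lists also hold regions away from coding genes, here and for the motif shares above. A background of regions at coding genes alone was not computed for composition or motifs.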
